A study of Mus musculus with 6 samples.

Results

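The clustered protocadherins are cell-surface adhesion proteins of the cadherin superfamily, encoded by 3 neighbouring gene clusters named alpha, beta and gamma. Their 58 genes were chosen by symbol from the 38896 gene symbols of a table of colonic fibroblast RNA-seq, as 14 alpha, 22 beta and 22 gamma genes. The family was proposed for description with results of these libraries known, so the comparison of DSS with control below is given as a description of its members. Fibroblasts had been taken from the distal colon of 6-week-old mice, grown over 2 passages, and then kept for 24 h in conditioned medium that was either control or inflammatory. Each of 3 mice, numbered 1716, 1717 and 1718, gave 1 control library and 1 library that the labels call DSS. No strain, sex, transgene or other agent is named for these 6 libraries, both groups share the culture and the 24 h in conditioned medium, and the labels and design text do not say what the medium was made from.

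Each clustered protocadherin carries extracellular cadherin repeats that bind the same protein on a facing cell, and the proteins of different genes pair side by side on a single cell. In the nervous system, where the family is best known, each neuron switches on its own mixture of promoters, and the resulting surface code lets branches of a neuron recognise and avoid each other. Each alpha and gamma gene is a large first exon with its own promoter, spliced to constant exons that all genes of its cluster share and that encode a common cytoplasmic end. A beta gene is a single exon with no constant part. Choice among promoters depends on the insulator protein Ctcf and on cohesin, which loop a promoter to distant enhancers, and on DNA methylation. The C-type genes (Pcdhac1, Pcdhac2, Pcdhgc3, Pcdhgc4 and Pcdhgc5) stand at the ends of the alpha and gamma clusters and are used more evenly among neurons than the others. Outside the brain, loss of PCDHGC3 expression has been described in human colorectal carcinoma.

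All 58 genes lay on chromosome 18 of the mouse build GRCm38. The alpha cluster spanned chr18:36930285-37188897, the beta cluster chr18:37264998-37521419 and the gamma cluster chr18:37661775-37841873. In the GENCODE M21 annotation each alpha transcript had 4 exons, a first exon of 2346 to 3028 bases and 2860 bases of later exons, so that the shared exons made 48.6 to 54.9% of a transcript. Each gamma transcript likewise had 4 exons, with a first exon of 2499 to 2961 bases and 2116 to 2119 bases of later exons, or 41.7 to 45.9% of the transcript. Reads from shared exons cannot be assigned to 1 gene by sequence alone, and the deposited estimated counts divide them among genes by a model. Among values above 0, 69% of 126 were whole numbers (within 1e-06) in the beta cluster, against 1.56% of 64 in the alpha cluster and 0% of 132 in the gamma cluster. Single alpha and gamma genes are therefore uncertain in a way that sums over a cluster are not. Beta values were whole more often, but Pcdhb5, Pcdhb13 and Pcdhb16 had fractional counts in all 6 libraries and share this uncertainty. 3 annotated models that join alpha and gamma exons (Gm37013, Gm38666 and Gm38667) fall outside the symbols and held at most 9.78 estimated counts in any library. Pcdhgb8 is annotated as a transcribed pseudogene.

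The libraries held 17293680 to 19482938 estimated counts. Levels are given as counts per 1000000 counts of a library (CPM), scaled between libraries by the trimmed mean of M-values (TMM). Levels of different genes are compared as CPM per kb of transcript, apart from shares and the choice of named genes, which use CPM. The 6 libraries carried fibroblast markers at a summed 37422 to 44120 CPM in control and 20166 to 24781 CPM in DSS, with 5 of the 10 markers lower and 1 higher. Epithelial markers summed to 1.53 to 2.35 CPM and endothelial markers to 12.7 to 22.2 CPM over all libraries. Markers of enteric glia were present and unequal between mice, at 743, 518 and 243 CPM in control and 748, 401 and 186 CPM in DSS for mice 1716, 1717 and 1718. The 10 neuronal markers summed to 93.7 to 151 CPM, most of it Tubb3 and Uchl1, and 5 of them passed the count filter. Elavl3, Elavl4, Snap25, Syt1 and Chat did not pass it, with at most 0.856 CPM in any library. Uchl1 was called higher in DSS, and with the mouse as a block Tubb3 was called lower. In bulk RNA, fewer cells of a type and less RNA per cell cannot be told apart.

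Gamma genes made up most of the clustered protocadherin RNA of these fibroblasts. In control cultures the summed level was 128 ± 7.20 CPM per kb for gamma, 26.6 ± 2.35 for beta and 1.18 ± 0.168 for alpha (SD, n = 3). By CPM, without correction for transcript length, gamma genes took 84.2 to 89.7% of the family in each of the 6 libraries. Beta genes took 9.68 to 14.9% and alpha genes 0.615 to 0.999%.

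Within the gamma cluster Pcdhgc3, whose product binds the Wnt pathway scaffold Axin1, stood far above the others. Its mean control level was 39.8 CPM per kb, followed by Pcdhga10 at 6.63, Pcdhgc5 at 6.26 and Pcdhgb2 at 6.23 CPM per kb, and those next 3 genes overlapped between libraries. Pcdhgc3 alone took 34.6, 31.6 and 26.4% of the gamma CPM in control libraries of mice 1716, 1717 and 1718. The 12 A-type genes had control means of 1.25 to 6.63 CPM per kb with a median of 3.88, and the 7 B-type genes 2.85 to 6.23 with a median of 4.58. All 22 gamma genes were thus detected in every library, and apart from Pcdhgc3 they lay within 1 order of magnitude of one another.

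Beta genes were lower and less even. The highest was Pcdhb17 at a control mean of 4.01 CPM per kb, then Pcdhb16 at 2.88 and Pcdhb22 at 2.68 CPM per kb. That order depends on the RefSeq lengths used, since with GENCODE M21 exon lengths Pcdhb16 stood at 2.90, Pcdhb17 at 2.81, Pcdhb18 at 1.56 and Pcdhb22 at 1.25 CPM per kb. The genes Pcdhb11 to Pcdhb22, at the distal end of the cluster, had a median control level of 1.52 CPM per kb, against 0.319 for Pcdhb1 to Pcdhb10 (1.11 against 0.313 with GENCODE lengths). Pcdhb1, which lacks the promoter element bound by Ctcf in other beta genes, was 0 in all 6 libraries, where the floor of 3 counts allows up to 0.152 to 0.172 CPM. Pcdhb8, Pcdhb9 and Pcdhb10 held 41.4 to 55.4 estimated counts over all libraries together.

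The alpha cluster was close to silent. Its 14 genes together held 79.1 to 148 estimated counts in a library. The highest were Pcdha10 at 0.289, Pcdhac2 at 0.265 and Pcdha12 at 0.167 CPM per kb in control, levels that overlapped between libraries. 11 alpha genes, Pcdhac1 with its 21.8 counts over 6 libraries among them, fell below the count filter used for testing.

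**Figure D1:**
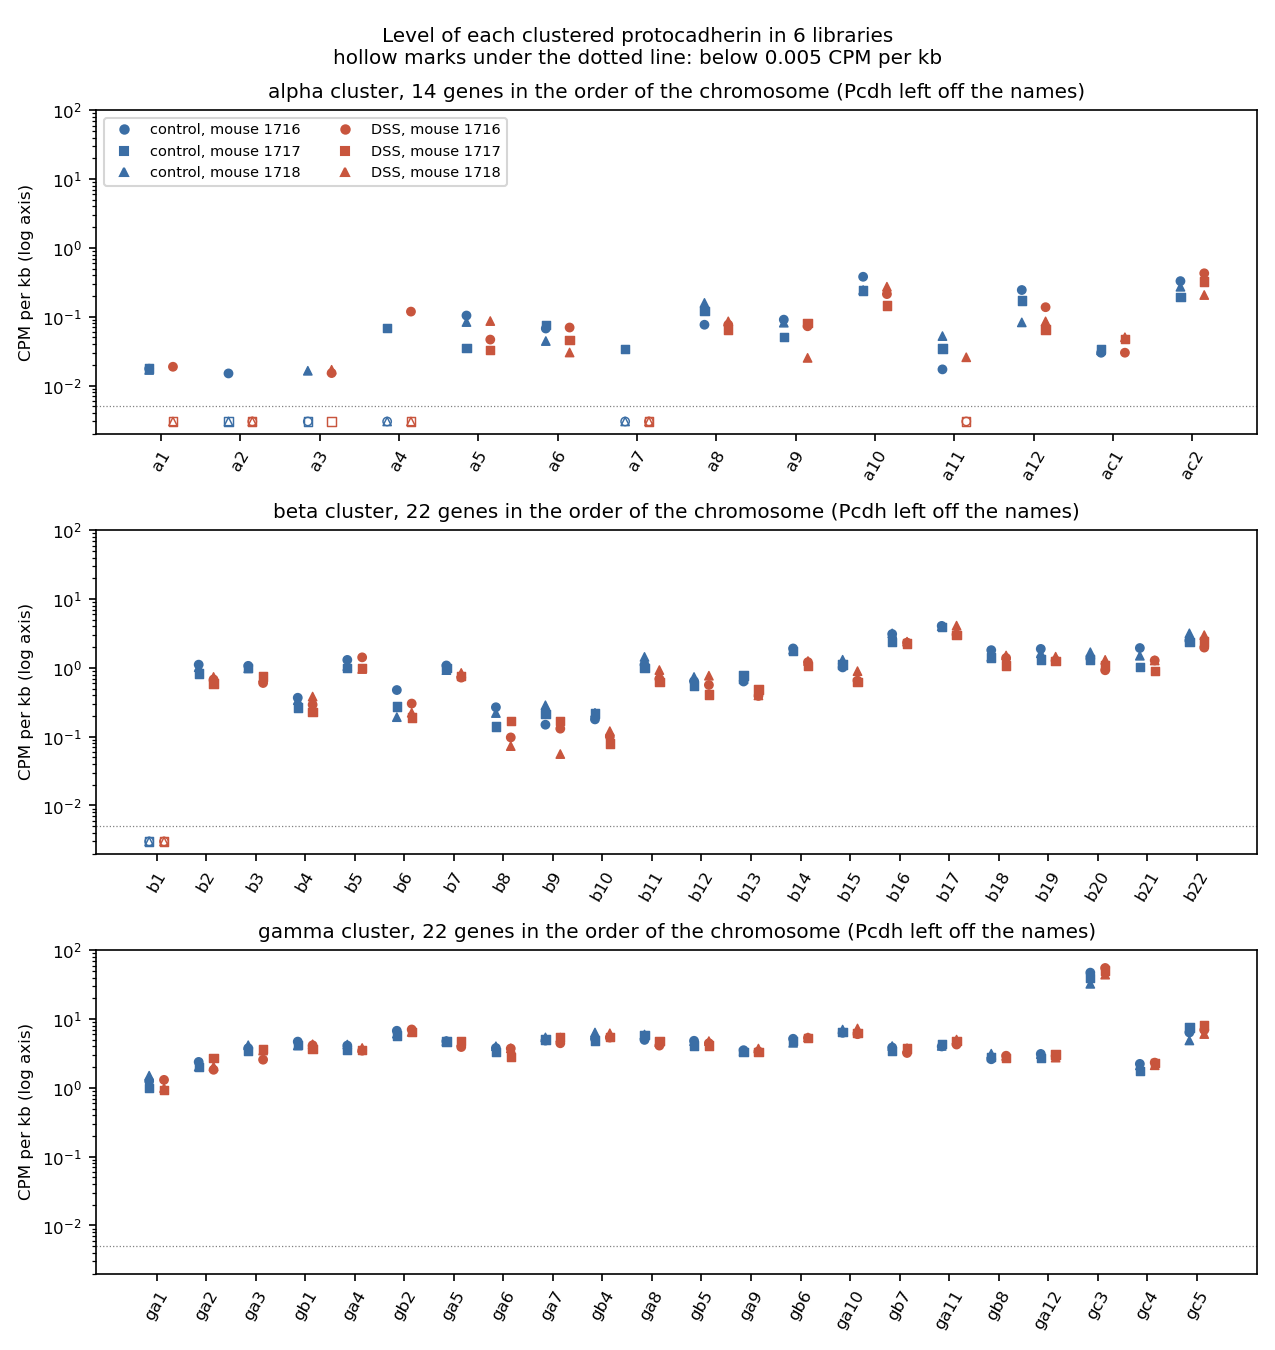
Level of each of the 58 genes in the 6 libraries, in CPM per kb of transcript on a log axis, with control in blue, DSS in red and a mark shape for each mouse. Gamma genes lie mostly between 1 and 10 CPM per kb with Pcdhgc3 far above at 39.8 in control, and beta genes are lower and uneven. Alpha genes have control means of at most 0.289 CPM per kb.

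The comparison of DSS with control asked how the inflammatory medium moved these genes. The beta sum was lower in DSS in each mouse, the sum of the A-type and B-type gamma genes differed by less than its spread, and Pcdhgc3 was higher in each mouse without passing the test that leaves the mouse out. edgeR's quasi-likelihood test was run over 19869 genes with Benjamini-Hochberg adjustment, and 43 clustered protocadherins passed its count filter (3 alpha, 18 beta and 22 gamma). It called 3 beta genes lower and no member higher at an adjusted p of 0.05, against a background of 5.91% of all tested genes called lower and 7.37% higher. This fit took all cultures as independent, although each mouse gave both a control and a DSS culture. Its p-values therefore count differences between the 3 mice as part of the error. With the mouse as a block 7 of the 43 members were called, where 25% of all tested genes were. Among those 7 members Pcdhgc3 alone was higher. Its edgeR adjusted p was 0.0075 with the block and 0.182 without it.

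The summed beta level was 103, 87.2 and 102 CPM in control and 74.4, 70.6 and 85.7 CPM in DSS for mice 1716, 1717 and 1718. All 3 DSS values lay below all 3 control values, and the ratio of DSS to control was 0.721, 0.810 and 0.841 in the 3 mice. On the log2 scale the mean difference was -0.34 ± 0.12 (SD, n = 3 mice).

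Among the 18 tested beta genes 17 had a negative log2 fold change, with a median of -0.38, where 48.6% of all tested genes were negative and their median was 0.01. The number below 0 was 17 under each scaling of edgeR and 18 with limma-voom. Each of 8 genes (Pcdhb2, Pcdhb3, Pcdhb7, Pcdhb11, Pcdhb13, Pcdhb14, Pcdhb15 and Pcdhb20) had all DSS libraries below all control libraries, as did 16.5% of all tested genes. 11 of the 18 were lower in all 3 mice, against 28.5% of all tested genes. These beta genes are encoded side by side and differ in the adhesive specificity of their extracellular part, and no individual function in fibroblasts is claimed for them here.

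Pcdhb14 (chr18:37447657-37451094) was at 6.59, 6.10 and 6.31 CPM in control and 4.17, 3.69 and 4.32 CPM in DSS. The groups did not overlap, and the log2 fold change was -0.64 ± 0.12 (SE), with an edgeR adjusted p of 0.0150. Its neighbour Pcdhb13 (chr18:37442517-37446209) was at 2.34, 2.87 and 2.52 CPM in control and 1.44, 1.78 and 1.47 CPM in DSS, again without overlap. This gave the largest fitted difference of the beta cluster, -0.72 ± 0.18, with an edgeR adjusted p of 0.0373. Pcdhb3 (chr18:37300799-37304585), from the proximal end of the cluster, was at 4.05, 3.78 and 3.73 CPM in control and 2.28, 2.84 and 2.73 CPM in DSS. Its log2 fold change was -0.56 ± 0.15 with an edgeR adjusted p of 0.0478, close to the threshold.

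With any 1 library or 1 mouse left out, Pcdhb14 was called in 2 of 9 edgeR fits (adjusted p 0.0340 to 0.131), and Pcdhb13 and Pcdhb3 in none of 9 (0.0590 to 0.191 and 0.0801 to 0.222). Their log2 fold changes in those fits were -0.70 to -0.58 for Pcdhb14, -0.82 to -0.64 for Pcdhb13 and -0.63 to -0.43 for Pcdhb3. DESeq2 called Pcdhb14 alone of the beta genes, where it called 6.53% of all tested genes lower.

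When the fit took each animal's paired cultures as a block, the beta calls were 5, as Pcdhb11 (edgeR adjusted p = 0.0153) and Pcdhb15 (0.0267) joined the 3 above. In that fit 12.7% of all tested genes were called lower and 12.3% higher. Both genes were named after their values were seen. Pcdhb11 was at 4.04, 3.56 and 5.22 CPM in control and 2.51, 2.27 and 3.36 CPM in DSS, and Pcdhb15 at 2.84, 3.12 and 3.67 CPM in control and 1.83, 1.76 and 2.50 CPM in DSS. In both genes mouse 1718 was the highest of each group, and every animal's DSS culture was below its control culture.

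The most abundant beta genes had smaller fold changes. Pcdhb16 was at 16.4, 12.4 and 16.7 CPM in control and 12.3, 11.9 and 12.7 CPM in DSS, overlapping by the control of mouse 1717, with a log2 fold change of -0.30 ± 0.13 and an edgeR adjusted p of 0.175. Pcdhb17 gave -0.25 ± 0.14 (adjusted p = 0.290), with its DSS library of mouse 1718 (13.4 CPM) above all 3 control libraries (12.8 to 13.3 CPM). Pcdhb22 gave -0.13 ± 0.19 (adjusted p = 0.712), and its groups overlapped. Pcdhb5 was the exception to the common sign, at 0.01 ± 0.20. The SE of a beta gene ran from 0.12 to 0.38 on the log2 scale in the fit without the block. Differences of this size were not resolved gene by gene in that fit.

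**Figure D2:**
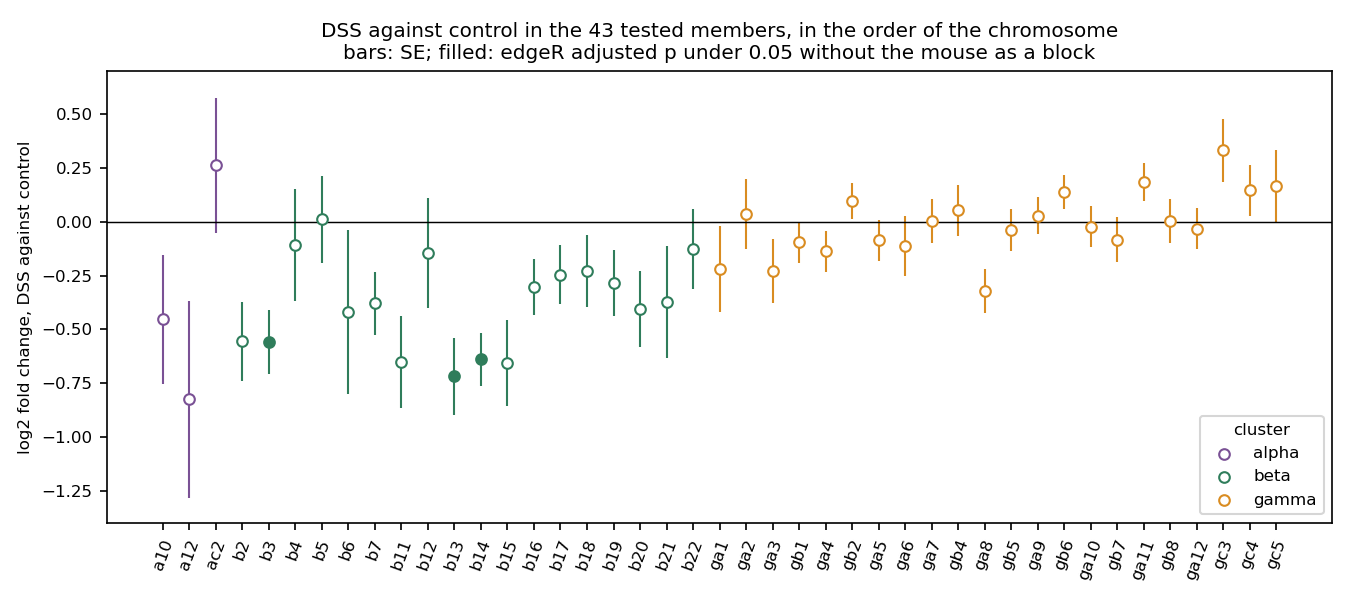
Log2 fold change of DSS against control for the 43 tested genes in the order of the chromosome, with SE bars and filled marks where the adjusted p was under 0.05. Nearly all beta genes lie below 0, gamma genes lie on both sides between -0.32 and 0.33, and the 3 C-type gamma genes at the right end are above 0.

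The fibroblast marker sum given above moved the same way as the beta cluster, and its part in the beta difference was not tested. Among those markers Pdgfra was higher in DSS (log2 fold change 0.71, edgeR adjusted p = 0.018), while Col1a1 (-1.06, 0.006) and Vim (-0.77, 0.011) were lower. The smooth muscle marker sum was 1621 to 1656 CPM in control and 1221 to 1412 in DSS, and the macrophage marker sum 1660 to 2481 and 1080 to 1826 CPM, and their part was not tested either. The share of the family held by beta genes, which does not depend on the scaling of the library, was 13.7, 12.8 and 14.9% in control and 10.1, 9.68 and 11.9% in DSS, without overlap.

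The gamma cluster summed to 640, 588 and 577 CPM in control and 655, 655 and 630 CPM in DSS. The log2 difference was 0.10 ± 0.06 (SD, n = 3 mice), and the control of mouse 1716 lay above the DSS of mouse 1718. Without Pcdhgc3 the sum was 415 ± 11.4 CPM in control and 412 ± 14.3 in DSS, a difference of -0.01 ± 0.07. The A-type and B-type genes together gave 375 ± 16.5 and 367 ± 16.2 CPM. Set against the gamma sum within each mouse, the beta sum was lower by a log2 difference of -0.50, -0.46 and -0.38, and against the gamma sum without Pcdhgc3 by -0.39, -0.35 and -0.25.

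No gamma gene passed the edgeR test without the block, where 1 of 22 had an unadjusted p under 0.05, against 28.5% of all tested genes. DESeq2 also called none. 11 of 22 fold changes were below 0 (13 with the size factors of DESeq2), and the median was -0.01. The SE ran from 0.078 to 0.20 with a median of 0.10, against a median of 0.18 for beta genes, and the ranges overlapped. The fit took the estimated counts as given, so this SE has no term of its own for the division of shared reads among gamma genes. 6 gamma genes were higher in all 3 mice (Pcdhgb2, Pcdhgb6, Pcdhga11 and the 3 C-type genes), and 2 were lower in all 3 (Pcdhga6 and Pcdhga8), where 28.5% of tested genes lay in each of these classes. Of the 6, Pcdhgb6 alone had all DSS libraries above all control libraries, at 21.1 to 24.2 against 24.7 to 25.4 CPM. Pcdhga10, the most abundant A-type gene, differed by -0.02 ± 0.09.

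Pcdhgc3 (chr18:37806410-37841873) was at 222, 186 and 152 CPM in control and 259, 238 and 207 CPM in DSS for mice 1716, 1717 and 1718. Each DSS culture was above the control of its own mouse, but the groups overlapped, because the control of mouse 1716 exceeded the DSS of mouse 1718. The log2 fold change was 0.33 ± 0.14 with an edgeR adjusted p of 0.182, and 0.0075 with the mouse as a block. Its share of the gamma CPM was 30.9 ± 4.15% in control and 36.3 ± 3.34% in DSS (SD, n = 3).

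The other gamma C-type genes were smaller in level. Pcdhgc4, which supports the survival of interneurons, was at 11.2, 8.89 and 10.7 CPM in control and 11.7, 11.6 and 10.7 CPM in DSS (log2 fold change 0.15 ± 0.12, edgeR adjusted p = 0.467). Pcdhgc5, whose product binds GABA-A receptors in neurons, was at 30.2, 35.7 and 23.2 CPM in control and 32.8, 38.4 and 28.7 CPM in DSS (0.17 ± 0.17, edgeR adjusted p = 0.583). Neither passed the test with the block (0.363 and 0.110). The 3 C-type genes summed to 263, 230 and 186 CPM in control and 303, 288 and 247 CPM in DSS, a log2 difference of 0.31 ± 0.10 over mice that Pcdhgc3 carried for the most part. Against the A-type and B-type sum of the same mouse the C-type difference was 0.31, 0.29 and 0.43 on the log2 scale.

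Pcdhga8 went the other way. It was at 23.5, 28.0 and 28.2 CPM in control and 19.5, 22.5 and 21.8 CPM in DSS, without overlap, for a log2 fold change of -0.32 ± 0.10. The edgeR adjusted p was 0.0813, and 0.0118 with the mouse as a block. It was named after its values were seen, and its immediate neighbours Pcdhgb4 (0.05 ± 0.12) and Pcdhgb5 (-0.04 ± 0.10) did not share the difference. Pcdhga8 and Pcdhgc3 were the gamma genes called with the block, where 12.7% of all tested genes were called lower and 12.3% higher.

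**Figure D3:**
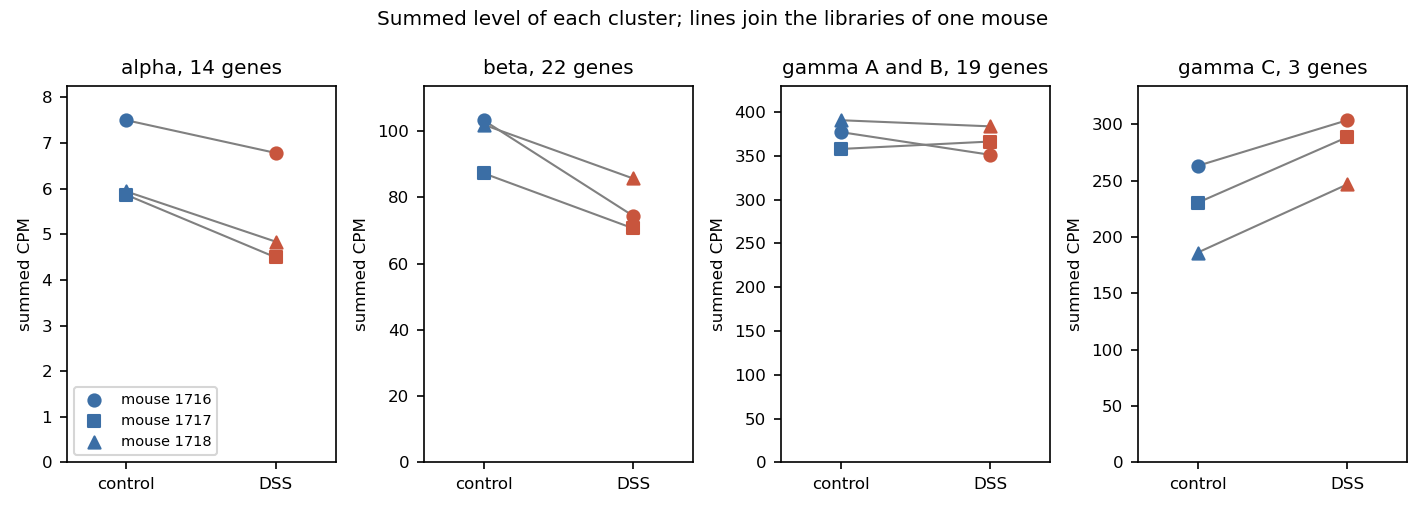
Summed CPM of each cluster by library, from an axis that starts at 0, with lines joining the control and DSS culture of each mouse. The beta sum is lower in DSS in every mouse, the 19 A-type and B-type gamma genes are nearly level, and the 3 C-type gamma genes are higher in DSS in every mouse.

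The alpha cluster summed to 7.50, 5.86 and 5.94 CPM in control and 6.78, 4.49 and 4.84 CPM in DSS. Each mouse was lower in DSS, the groups overlapped, and the log2 difference was -0.28 ± 0.12 (SD, n = 3 mice). The 3 tested genes passed no test, with or without the block. Pcdha10 gave -0.45 ± 0.30 (edgeR adjusted p = 0.370) and Pcdha12 -0.83 ± 0.46 (0.284). Pcdhac2, the C-type gene that is used broadly in neurons, gave 0.26 ± 0.31 (0.644), and without the DSS library of mouse 1716, where it was at 2.52 CPM, the estimate was -0.0014. Without the block none of the 3 had an unadjusted edgeR p under 0.05, and DESeq2 called none. With the block Pcdha12 had an unadjusted edgeR p of 0.0486 (adjusted p = 0.132). The SE of these genes, 0.30 to 0.46 on the log2 scale, was larger than that of most beta and gamma genes.

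A comparison that the choice of members did not use is that between the 3 mice, since each mouse gave both a control and a DSS culture. The edgeR test of the mouse term, with the group in the fit, called 1 of the 43 members, against 4.42% of all tested genes. At an unadjusted p under 0.05 it counted 9 members (4 beta and 5 gamma), where 19% of all tested genes passed, so that the members differed between animals about as often as other genes.

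The called gene was Pcdhgc5 (edgeR adjusted p = 0.0376), highest in mouse 1717 and lowest in mouse 1718 in both groups, at the levels given above. Pcdhgc3 missed the threshold (edgeR adjusted p = 0.0522), with the order 1716, 1717, 1718 from high to low in both groups. Without mouse 1718 no member was called between the other two mice. The enteric glia markers had the same order of mice as Pcdhgc3, from 743 to 243 CPM in control and 748 to 186 CPM in DSS. Of those 10 markers 7, among them Sox10 and Gfap, were called between mice. All 10 were above 0 in at least 1 library. Rad21, a gene of the related lists below, had this order too, at 125, 109 and 94.8 CPM in control and 101, 83.9 and 80.3 CPM in DSS. How many of all tested genes had it was not counted. Between DSS and control none of the glia markers was called without the block, and 3 were called lower with it. Within a mouse their sum was nearly level in DSS in mouse 1716 and lower in mice 1717 and 1718, while Pcdhgc3 was higher in all 3. Their part in either difference was not tested.

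**Figure D4:**
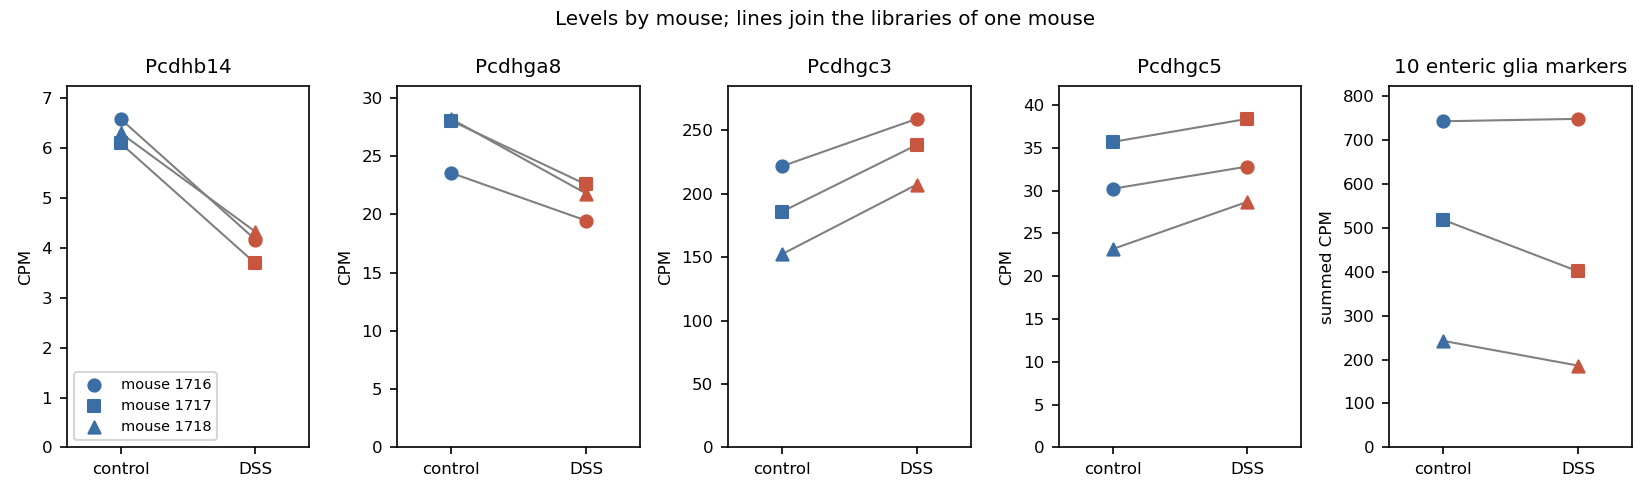
CPM of Pcdhb14, Pcdhga8, Pcdhgc3 and Pcdhgc5 and the summed CPM of 10 enteric glia markers in each library, with lines joining the cultures of each mouse and axes from 0. Pcdhb14 and Pcdhga8 are lower in DSS in every mouse, Pcdhgc3 is higher in every mouse, and the mice stand in the same order for Pcdhgc3 and for the glia markers.

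Genes that act on clustered protocadherins or resemble them were read from lists. Of 29 factors of promoter choice and chromatin, all tested, edgeR called 1 higher and 2 lower, with a median log2 fold change of -0.12, against the background of 7.37 and 5.91% above. Tet3, which oxidises methylated cytosine, fell by 0.65 ± 0.08 on the log2 scale (edgeR adjusted p = 0.0034). It was at 98.1, 106 and 118 CPM in control and 67.4, 68.1 and 70.1 CPM in DSS, without overlap. Smc1a, a subunit of the cohesin ring, fell by 0.39 ± 0.11 with an edgeR adjusted p of 0.04997, at the threshold itself.

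Ctcf was at 50.7, 42.6 and 45.4 CPM in control and 42.0, 36.6 and 39.5 CPM in DSS, lower in each mouse (log2 fold change -0.23 ± 0.09). Its edgeR adjusted p was 0.137, and 0.0239 with the mouse as a block. Rad21, the cohesin subunit that closes the ring, gave -0.31 ± 0.12 with an edgeR adjusted p of 0.153, and 0.0076 with the block. Smchd1, a chromatin protein that represses clustered protocadherins in other cells, gave -0.05 ± 0.08 (0.748), and the DNA methyltransferase Dnmt3b -0.14 ± 0.23 (0.744). With the block this list held 2 higher and 8 lower genes, beside 12.3 and 12.7% of all tested genes. The cohesin subunit Stag2, named after its values were seen, was among the higher genes. It was higher in each mouse, at 0.23 ± 0.09 (edgeR adjusted p = 0.151, and 0.0225 with the block).

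Of 32 cytoplasmic partners and proteases that act on the proteins, 2 were higher and 1 lower, beside 7.37 and 5.91% of all tested genes, with a median log2 fold change of -0.08. Nckap1, a subunit of the WAVE actin regulatory complex, rose by 0.56 ± 0.08 (edgeR adjusted p = 0.0058), from 228 to 243 CPM in control to 329 to 383 CPM in DSS. Psen2, a catalytic subunit of the gamma-secretase that cuts protocadherins within the membrane, rose by 0.55 ± 0.09 (0.0080). The receptor tyrosine kinase Ret, a known partner of clustered protocadherins in neurons, fell by 1.69 ± 0.27 (0.0080), from 2.98 to 5.42 CPM to 1.14 to 1.31 CPM. With the block the list held 4 higher and 5 lower genes, beside 12.3 and 12.7% of all tested genes.

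Of 24 protocadherins and other large cadherins encoded outside the clusters 19 were tested, 2 were higher and 5 lower, beside 7.37 and 5.91% of all tested genes, and the median log2 fold change was -0.26. Celsr3, a planar polarity cadherin, rose by 1.11 ± 0.13 (edgeR adjusted p = 0.0029), and Pcdh15, known from the hair cells of the inner ear, by 1.18 ± 0.20 (0.0094). Fat3 fell by 1.12 ± 0.18 (0.0072) and Fat1, an abundant giant cadherin of fibroblasts at 884 to 959 CPM in control and 661 to 702 CPM in DSS, by 0.43 ± 0.07 (0.0094). With the block 3 were higher and 6 lower (background 12.3 and 12.7%).

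Of 25 classical cadherins and catenins 20 were tested, 1 was higher and 2 lower, beside 7.37 and 5.91% of all tested genes, and the median was -0.16. Cdh10 fell by 2.75 ± 0.25 (edgeR adjusted p = 0.0013), from 3.34 to 5.10 CPM to 0.514 to 0.738 CPM, and Cdh3 by 0.95 ± 0.16 (0.0099). Ctnnd2, a catenin best known in neurons, rose by 2.11 ± 0.21 (0.0018), from 0.631 to 0.811 CPM to 2.68 to 3.59 CPM. With the block 3 were higher and 3 lower (background 12.3 and 12.7%).

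Of 21 genes that flank or interleave with the clusters on chromosome 18, 19 were tested, edgeR and DESeq2 called none, and the median log2 fold change was 0.03. In edgeR 4 of the 19 had an unadjusted p under 0.05, where 28.5% of all tested genes did. With the block 2 were higher (Tmco6 and Arap3) and 1 lower (Cd14), all 3 named after their values were seen. Whether the genes on either side of the clusters shared a direction was not tested.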

How the data were processed

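RNA was sequenced from 6 mouse colonic fibroblast cultures, 1 control and 1 DSS from each of 3 mice. Libraries were depleted of ribosomal RNA and made with a directional kit, per the labels' protocols. The authors deposited estimated counts for 120299 transcripts, made with kallisto on GRCm38 (mm10), per the submitters' processing notes. Its version, annotation, strand setting and filters were not given in the sources used. Whether reads of overlapping antisense genes were told apart is therefore not known. Estimated counts were summed per symbol and rounded for testing, and genes passing filterByExpr (minimum count 10, total 15) were tested with edgeR 4.0.16 (R 4.3.3) at 0.05 after Benjamini-Hochberg adjustment. CPM used the unrounded values and TMM-scaled library sizes. CPM per kb used GENCODE M21 transcript lengths for alpha and gamma genes and RefSeq gene lengths for beta genes. The main fit had the group alone. The mouse as a block was the alternative, and cultures of a mouse did deviate together (r of 0.352, 0.212 and 0.463 within mice and -0.36 to 0.0222 between them). DESeq2 1.42.0, limma 3.58.1, other scalings, no filter and leaving out each library or mouse were also run. The edgeR fits were tested on simulated data, where they made more false calls than the nominal rate. Totals of 17293680 to 19482938 counts set the counting error, and the floor of 3 counts covers that error only. The members and lists were chosen with earlier results of these data known. Named genes were the C-type genes, the 3 most abundant and up to 5 called genes of each cluster, up to 4 called between mice, and up to 4 called genes of each related list with Ctcf, Rad21, Smchd1 and Dnmt3b. Marker lists also covered interstitial cells of Cajal (13.8 to 27.9 CPM) and mesothelium (1.82 to 4.22 CPM). Some genes of this rule and of the marker lists are not reported here. No sequence is shown.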

Additional observations from a re-analysis of the deposited data

How the results depend on the processing

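The direction of the beta difference was the same under every alternative, and its sum stayed between -0.42 and -0.28 on the log2 scale when libraries or mice were left out. The number of beta genes called was not stable: 3 without the block, 5 with the replicate block, 1 with DESeq2, 1 with no filter on low counts and 0 to 1 when a library or a mouse was left out, where fewer samples were fitted. For gamma genes 0 were called, and 2 with the replicate block (1 lower, 1 higher). The replicate block rests on real pairs, since the labels give the same mouse to both cultures. No alpha gene was called under any alternative. The alpha sum was -0.28, but -0.087 as the median of members, -0.51 without its most abundant gene and -0.46 to -0.16 when a library or mouse was left out (-0.46 without the DSS library of mouse 1716). The gamma sum was 0.10, but 0.011 as the median of members and -0.012 without Pcdhgc3. Between mice 1 member was called, 2 with limma-voom, 2 with no filter and 0 to 1 when a mouse was left out. The cause of these shifts was not tested. For the 115 distinct tested genes of the related lists the main fit gave 16 calls, where 13.3% of all tested genes were called. Alternatives added after seeing the data gave 37 calls with the replicate block, where 25% of all tested genes were called. They gave 3 to 16 calls when a library or mouse was left out (3 without mouse 1717 and 5 without mouse 1718). Of the named genes' other values 381 kept their side of the threshold, 65 lost a call and 3 gained one, with no reversal among called values. With GENCODE in place of RefSeq lengths, an alternative added after seeing the data, Pcdhb14 went from 1.84 to 0.728 CPM per kb in control. Counts were too low for 11 of the 14 alpha genes to be tested.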
